A study of Mus musculus with 16 samples.

Results

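The early response of splenic CD4 T cells to interferon alpha (IFNα) in B10.Q mice was measured on 4 of the 16 Affymetrix Mouse Gene 1.0 ST arrays of the series. They were chosen by title and cell label: 2 arrays of T cells taken 2 h after IFNα and 2 arrays of T cells from mice given vehicle. The T cells were sorted from spleen as TCRB+ CD4+ CD8- cells on a FACSAria, and all donors were male B10.Q/J mice aged 7 weeks. B10.Q/J is a strain that carries a natural mutation in Tyk2, so vehicle and treated mice alike carry that allele, and the series holds no array of a mouse in which both Tyk2 and Ifnar1 are intact. Treated mice received 10000 units of IFNα under the skin. The vehicle pair was not taken at 1 time: vehicle array 1 came from a mouse sacrificed at 2 h and vehicle array 2 from a mouse sacrificed at 5 h. The same sort at 5 h after IFNα (2 arrays), and peritoneal macrophages of the same strain with vehicle or 2 h after IFNα (2 arrays each), were used for comparison. The titles of these macrophage arrays disagree on the site. That of IFNα 2 h array 1 carries the code PC, and the others carry Sp, as the titles of the spleen T cells do. They are called peritoneal throughout, with that conflict unresolved. The 2 arrays of these macrophages at 5 h after IFNα entered the joint fit of both cell types, for its filter and its estimate of the spread. The arrays of the series from macrophages without Ifnar1 are not compared here. They enter 1 alternative fit and the mean over the 16 arrays by which each gene's probe set was chosen. The labels leave unsaid whether arrays of 1 group stem from different mice, so every p-value below measures the spread between these arrays, which may be technical.

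Type I interferons bind a receptor made of IFNAR1 and IFNAR2, whose tails hold the kinases TYK2 and JAK1. The kinases activate transcription factors that assemble with IRF9 into ISGF3, a complex that binds the interferon-stimulated response element in front of interferon-stimulated genes. In T cells these genes encode antiviral effectors, sensors of foreign nucleic acid, components of the pathway itself and the inhibitors that close it down.

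The sorted cells read as CD4 T cells. All 11 measured CD4 T-cell markers were tested, and limma called 0. Their median difference was -0.08 on the log2 scale and -0.01 without IFNα array 1. Of the 11, 3 were lower at an unadjusted p under 0.05 (2.72% of all genes tested), Cd3d at -0.33, Bcl11b at -0.31 and Cd28 at -0.24. For 5 of the 11 both 2 h arrays lay below both vehicle arrays (19.4% of all genes tested). Cd3e, a chain of the T-cell receptor complex, read 12.40 and 12.46 on the vehicle arrays and 12.24 and 12.57 on the 2 h arrays, as the log2 of the deposited intensity, which is the scale of all levels below. Vehicle array 1 carries a B-cell code at the start of its title, whereas its cell label is CD4+ T cell. On that array the B-cell markers Cd79a and Ms4a1 read 6.73 and 5.96, against 6.51 and 6.11 on vehicle array 2. Array medians of the 6 T-cell arrays lay between 173.6 and 179.3 intensity units.

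Both IFNα arrays taken at 2 h carried signal of macrophage markers, and array 1 carried the more. Lyz2, the lysozyme of myeloid cells, read 7.34 and 7.67 with vehicle but 12.20 and 10.02 at 2 h, against 13.85 to 13.87 in the macrophages. Of the 11 macrophage and monocyte markers measured, 10 were highest on IFNα array 1 among the 6 T-cell arrays. On array 2, 8 of the 11 lay above both vehicle arrays. The mean level of the list was 8.57 on array 1, 7.52 on array 2, and 7.15 and 7.02 on the vehicle arrays. Adgre1, which encodes F4/80, reached 8.63 and 6.82 against 6.65 and 5.88. The mean of 9 neutrophil markers was 6.07 and 5.98 at 2 h and 6.01 on both vehicle arrays, and S100a8 read 5.74 and 5.54 at 2 h and 5.75 and 5.56 with vehicle. On the linear scale, as a share of the rise from the T-cell vehicle level to the macrophage level, the median marker stood at 2.75% on array 1 and 0.379% on array 2, and the highest, Lyz2, at 30.9% and 5.85%. Over all genes array 1 correlated with the other T-cell arrays at r between 0.987 and 0.991, while every pair among the other 5 arrays reached at least 0.9945.

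**Figure D1:**
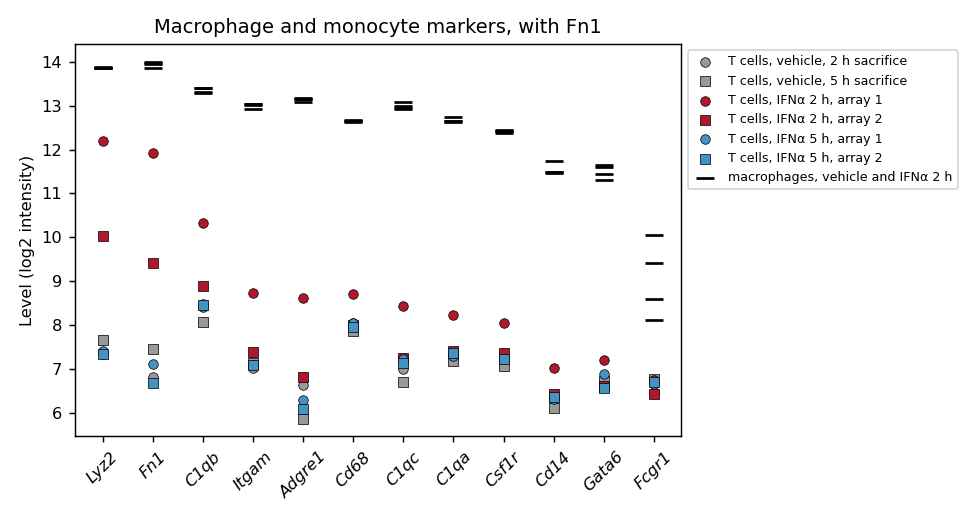
Levels (y axis, log2 intensity) of 11 macrophage and monocyte markers and of Fn1 (x axis) on the 6 T-cell arrays, shown as points, and on the 4 macrophage arrays with vehicle or 2 h after IFNα, shown as short bars. Lyz2 and Fn1 stand highest on the IFNα 2 h arrays, at 12.20 and 11.93 on array 1 and at 10.02 and 9.43 on array 2, below the macrophages in every case.

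At 2 h the CD4 T cells had raised interferon-stimulated genes, and the calls were led by Ifit1, Usp18, Rtp4, Mx2, Rsad2 and Cmpk2. Of 10112 genes tested, 28 rose (0.277%) and 1 fell (0.00989%), together 0.287%, at an adjusted p under 0.05 in limma with Benjamini-Hochberg adjustment over all genes. Of the 28, 24 changed by more than 2-fold, the smallest rise was 1.78-fold and the largest 37.9-fold. The median difference of the 28 was 1.60 on the log2 scale, against -0.03 over all genes tested, and the 28 were chosen on these values. At an unadjusted p under 0.05, 339 genes were higher (3.35%) and 275 lower (2.72%). Both IFNα arrays lay above both vehicle arrays for 1465 genes (14.5%) and below both for 1964 (19.4%).

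The number of calls depended on single arrays. Without IFNα array 1, 70 genes rose and 1 fell (0.697% and 0.00996% of 10043), and all 25 of the 28 risers that could be tested there remained called. Leaving out IFNα array 2, which leaves array 1 alone, gave 599 higher and 1218 lower. Without vehicle array 1 limma called 0 genes, with 276 at an unadjusted p under 0.05, and without vehicle array 2 it called 2. In each of these fits the lone array is assumed to vary like the other groups. A fit of the 4 compared arrays alone called 2 genes, and a fit of all 16 arrays called 50.

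The 28 were higher on IFNα array 1 than on array 2 in 28 of 28 cases, by a median of 0.47 and between 0.03 and 1.10 on the log2 scale, while over all genes the median gap was -0.04. The same array carried the larger macrophage signal. In an alternative chosen after seeing the data, macrophage RNA was subtracted from each T-cell array at its own median marker share, which was at most 0.174% on the vehicle and 5 h arrays. Then 24 genes rose and 0 fell, all 24 were among the 28, and no difference of the 28 moved by more than 0.06. The calls lost were those of Gm12250, Ifi214, Dtx3l and Mitd1, at limma adjusted p-values of 0.0562 to 0.0595, and that of Hs3st3b1. Subtraction at each array's highest marker share, which was that of Lyz2 on both 2 h arrays, left Ifit1, Rtp4, Cmpk2 and Irf9 as the 4 risers and 25 genes called lower. It also put 10 of the 11 macrophage markers at the lowest value of array 1. There 27 of the 28 differences stayed above 0, Phf11a being the exception at -1.76. Both subtractions used the mean of the macrophage arrays taken 2 h after IFNα, on the vehicle arrays too. What remained was divided by the share of RNA left, which raises levels most on IFNα array 1. The signs after subtraction are therefore a description and no test of the rises.

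Effectors that act on viral RNA and replication held the largest changes. Ifit1, which binds viral RNA lacking host cap methylation, read 6.67 and 6.87 on the vehicle arrays and 12.41 and 11.62 on the IFNα arrays. The groups did not overlap, and the difference was 5.24 ± 0.28 (SE, n = 2 arrays per group, as throughout), a 37.9-fold rise with a limma adjusted p of 7.71e-04 and a 95% interval from 4.60 to 5.89. Rtp4, a chaperone of receptor proteins with antiviral activity, went from 7.78 and 7.91 to 11.43 and 10.95. That rise of 3.34 ± 0.15 was 10.2-fold and had the smallest p of all genes (limma adjusted p = 5.87e-04).

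The GTPase Mx2 and the radical-SAM enzyme Rsad2 (viperin) started from low signal. Mx2 read 5.38 and 5.75 with vehicle and 8.77 and 7.67 at 2 h. Rsad2 moved from 6.08 and 5.69 to 8.80 and 8.19. Both vehicle values of each gene lay below the lower quartile of their array, so the rises are given as at least 6.28-fold for Mx2 and at least 6.09-fold for Rsad2 (2.65 ± 0.31 and 2.61 ± 0.22, limma adjusted p = 0.0243 and 0.00631). Those folds are point estimates, and the wording refers to the low vehicle signal only. Tests took in genes above the array median on 2 or more arrays. Mx2 and Rsad2 passed that filter only through the 2 h arrays, where they are high, so their adjusted p-values rest on that passage. Neither could be tested without IFNα array 1. Cmpk2, the nucleotide kinase encoded next to Rsad2, read 7.00 and 7.05 and then 9.81 and 9.05, a 5.29-fold rise (limma adjusted p = 0.00657). For these 3 genes the treated arrays lay well clear of the vehicle arrays, and array 1 was the higher.

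Xaf1, a pro-apoptotic antagonist of XIAP, rose from 8.68 and 8.71 to 11.05 and 10.46, by 2.05 ± 0.17. Oas1b, a member of the oligoadenylate synthetase family, rose from 8.98 and 8.92 to 10.86 and 10.40, by 1.67 ± 0.15. Ifi27l2a, named here after its values were seen, read 8.51 and 8.43 with vehicle and 10.28 and 9.73 at 2 h, a rise of 1.53 ± 0.19 (limma adjusted p = 0.0284). Of the 31 antiviral effector genes tested, 8 rose, namely Ifit1, Rtp4, Mx2, Rsad2, Cmpk2, Xaf1, Oas1b and Ifi27l2a. The list had a median difference of 1.50 against -0.03 for all genes. All 31 had both IFNα arrays above both vehicle arrays (14.5% of all genes tested). Mx2 and Rsad2 are among the 31 and passed the filter only through the 2 h arrays. This count and the list's median are therefore partly fixed by the filter and are a description. The median was 0.92 without IFNα array 1. Over all genes tested 0.277% rose in the main fit, the share to set beside the risers of this and each list below. Counts called without IFNα array 1 rest on a single treated array, and the share over all genes in that fit is given above. Ifit3 showed the second largest difference of the list without passing, with 6.41 and 6.54 against 10.82 and 9.01 (3.44 ± 0.50, limma adjusted p = 0.0543). Its treated arrays lay 1.81 apart. Ifitm3, a membrane protein that blocks viral entry, read 5.34 and 5.88 against 8.92 and 7.53 (2.61 ± 0.41 on the log2 scale, limma adjusted p = 0.0685). Both vehicle values lay below the lower quartile, so it passed the filter through treated arrays. Macrophages with vehicle read 12.94 to 13.00 for it, and both 2 h arrays carried macrophage signal. No lower bound is therefore given for its rise. The part of macrophage RNA in this difference was not tested beyond the subtraction above.

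**Figure D2:**
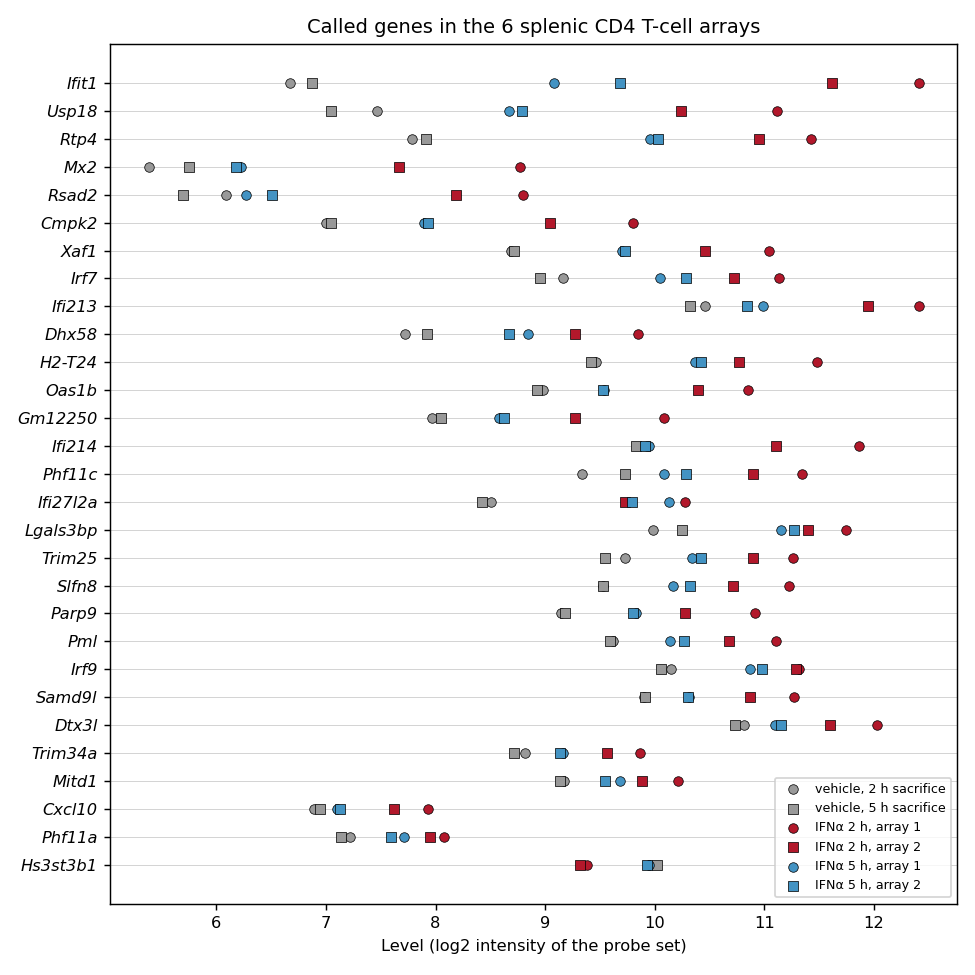
Levels (x axis, log2 intensity of the probe set) of the 29 called genes, 1 per line, on the 6 T-cell arrays, with grey for vehicle, red for IFNα 2 h and blue for IFNα 5 h. The red points lie above the grey ones for 28 genes and below them for Hs3st3b1, and the blue points lie between for most genes.

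Because the risers moved together, their promoter windows were searched for the response element bound by ISGF3. RefSeq windows of GRCm38.p6 run from 250 bases before to 50 bases after a gene's start, read 5′ to 3′ on the gene's own strand, and so cover the proximal promoter and the first transcribed bases. Of the 28 risers, 20 had a window and these had 22 windows in all. The motif searched, on both strands, was GAAANNGAA followed by a further A. It occurred in 11 of the 22 windows (50%), from 10 genes, against 3.05% of the 10296 windows of all genes tested and 3.44% of all 32851 windows. The STAT dimer motif TTCNNNGAA occurred in 2 of the 22 (9.09%), against 6.88% and 8.3%. The windows below are printed in lower case. Each match of GAAANNGAA followed by a further A, on either strand, is in capitals, and matches of TTCNNNGAA are not marked. Ifit1 (chr19:34640639-34640938, plus strand) is shown as the gene with the largest rise and Gm12250 (chr11:58183593-58183892, plus strand) as the other gene with a pair of matches. Ifi213 (chr1:173599223-173599522, minus strand) has 1 match, and Irf7 (chr7:141266375-141266674, minus strand) is a riser with no match in its window.
Ifit1: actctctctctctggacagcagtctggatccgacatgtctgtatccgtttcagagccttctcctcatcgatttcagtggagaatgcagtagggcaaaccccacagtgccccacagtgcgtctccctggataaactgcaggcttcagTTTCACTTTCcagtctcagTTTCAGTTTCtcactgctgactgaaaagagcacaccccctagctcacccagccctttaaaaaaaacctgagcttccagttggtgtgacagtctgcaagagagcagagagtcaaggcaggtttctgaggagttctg
Gm12250: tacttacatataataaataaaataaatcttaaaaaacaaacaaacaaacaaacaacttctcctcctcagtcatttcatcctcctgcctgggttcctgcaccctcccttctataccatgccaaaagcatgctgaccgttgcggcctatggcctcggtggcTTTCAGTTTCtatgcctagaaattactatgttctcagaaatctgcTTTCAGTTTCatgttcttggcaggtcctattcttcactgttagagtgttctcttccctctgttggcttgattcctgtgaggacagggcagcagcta
Ifi213: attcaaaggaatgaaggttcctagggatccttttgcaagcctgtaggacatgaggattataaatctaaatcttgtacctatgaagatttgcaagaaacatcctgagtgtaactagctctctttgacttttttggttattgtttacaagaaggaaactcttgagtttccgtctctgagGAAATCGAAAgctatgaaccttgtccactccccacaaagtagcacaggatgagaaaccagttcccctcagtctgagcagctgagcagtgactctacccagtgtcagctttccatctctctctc
Irf7: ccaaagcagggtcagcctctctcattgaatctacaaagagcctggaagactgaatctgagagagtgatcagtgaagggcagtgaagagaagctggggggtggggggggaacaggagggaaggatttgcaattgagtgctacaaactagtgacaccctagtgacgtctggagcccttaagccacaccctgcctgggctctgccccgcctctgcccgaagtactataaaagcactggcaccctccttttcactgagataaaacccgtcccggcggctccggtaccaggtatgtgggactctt
The matches of Ifit1 and Gm12250 read on the opposite strand of the gene and that of Ifi213 on the gene's own strand. The other genes with a match were Rsad2, Ifi214, Slfn8, Trim34a, Mitd1, Cxcl10 and Phf11a. Cmpk2, Xaf1, Phf11c, Lgals3bp, Trim25, Pml, Irf9, Samd9l and Dtx3l, as well as Hs3st3b1, had none in this window. A match is a run of letters and does not show a bound site.

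Sensors of foreign nucleic acid and their partners formed the next group. Dhx58, which encodes LGP2, a regulator of RIG-I-like receptors, read 7.73 and 7.92 with vehicle and 9.85 and 9.27 at 2 h (1.74 ± 0.18, limma adjusted p = 0.0171). Ifi213, a DNA-binding protein of the PYHIN family, read 10.46 and 10.32 and then 12.41 and 11.95 (1.79 ± 0.15). Trim25, the ubiquitin ligase that activates RIG-I, read 9.73 and 9.55 and then 11.26 and 10.90 (1.44 ± 0.13, limma adjusted p = 0.00853). No vehicle value reached a treated one in any of the 3 genes. These were the 3 risers among 17 sensing genes tested, whose median difference was 0.94. Of the 17, 14 had both treated arrays above both vehicle arrays (14.5% of all genes tested). Leaving out IFNα array 1 gave a median of 0.62, with 10 of 16 called. Ifih1, which encodes the RNA sensor MDA5, read 8.16 and 8.22 against 10.33 and 9.37 (1.66 ± 0.27, limma adjusted p = 0.0709). Ddx60, a helicase linked to RIG-I signalling, showed 1.50 ± 0.26 (adjusted p = 0.1 in limma).

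A second PYHIN gene, Ifi214, rose from 9.93 and 9.83 to 11.86 and 11.10 (1.60 ± 0.22, limma adjusted p = 0.0449). Ifi213 and Ifi214 are close relatives, as are Phf11a and Phf11c and the members of the Schlafen, Oas1 and Trim34 families. Their probe sets may share hybridisation, so which copy changed is uncertain. The PHD-finger genes Phf11c and Phf11a rose by 1.59 ± 0.18 and 0.84 ± 0.10. They were the 2 risers among 8 tested genes of the Phf11, Ms4a and Ly6 families, whose median was 0.36, or 0.17 without IFNα array 1.

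Genes of ISG15 conjugation, of ADP-ribosylation and of the TRIM family held 1, 2 and 3 risers. Usp18, the protease that removes ISG15 and that also blocks IFNAR2 signalling, read 7.47 and 7.04 with vehicle and 11.12 and 10.24 at 2 h. Its rise of 3.43 ± 0.27 was 10.8-fold (limma adjusted p = 0.00631), the second largest of all called genes. It was the 1 riser of 4 ISG15-pathway genes tested, with a median of 0.83, and of 17 negative regulators, with a median of 0.00. Without IFNα array 1 those medians were 0.50, with 2 ISG15-pathway genes called, and 0.04. Herc6, the mouse ligase for ISG15, read 9.63 and 9.69 against 11.36 and 10.42 (1.23 ± 0.26, limma adjusted p = 0.228). Socs3, an inhibitor of JAK kinases, read 9.37 and 9.63 against 10.45 and 9.68 (0.57 ± 0.23, adjusted p = 0.763), with array 2 close to the vehicle arrays.

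Parp9 and Dtx3l encode partners in a complex of ADP-ribosyltransferase and ubiquitin ligase, and both rose. Parp9 went from 9.14 and 9.18 to 10.91 and 10.28 (1.43 ± 0.18, limma adjusted p = 0.0356) and Dtx3l from 10.82 and 10.73 to 12.03 and 11.60 (1.04 ± 0.14, limma adjusted p = 0.0449). They were the 2 risers of 15 PARP-family genes tested, and the list's median was 0.18. Parp12 and Parp14 had differences of 1.35 ± 0.25 and 1.25 ± 0.19 that did not pass (limma adjusted p = 0.123 and 0.0651). In the TRIM list 3 of 13 tested genes rose, Trim25, Pml and Trim34a, and the median was 0.95. Pml, the scaffold of nuclear bodies, read 9.62 and 9.59 with vehicle and 11.11 and 10.68 at 2 h (1.29 ± 0.14, limma adjusted p = 0.021). All 13 TRIM genes had both treated arrays above both vehicle arrays (14.5% of all genes tested). Without IFNα array 1 the TRIM median was 0.60 with 7 called, and 4 PARP-family genes were called.

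Transcription factors of the pathway came next. Irf9, the DNA-binding subunit of ISGF3, rose from 10.15 and 10.06 to 11.32 and 11.29 (1.20 ± 0.09, limma adjusted p = 0.00631). Its treated arrays differed by 0.03, the smallest gap among the risers. Irf7, the factor that amplifies the interferon response, rose from 9.16 and 8.96 to 11.13 and 10.73 (1.87 ± 0.16, limma adjusted p = 0.00631). These were the 2 risers of 7 interferon regulatory factors tested, and Irf1 showed 0.49 ± 0.18 (adjusted p = 0.763). Stat2 read 9.08 and 9.06 against 10.54 and 9.65 (1.03 ± 0.24, limma adjusted p = 0.358). Isg15 has no probe set of its own symbol and is not analysed here.

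Receptor and kinase transcripts gave no call. Ifnar1 read 10.56 and 10.54 with vehicle and 10.43 and 10.51 at 2 h, a difference of -0.08 ± 0.09. Ifnar2 showed 0.02 ± 0.10, and it turned to -0.07 without IFNα array 2 and to -0.02 after subtraction at the median marker share. Tyk2 read 9.79 on both vehicle arrays and 9.39 and 9.88 at 2 h (-0.15 ± 0.16), and without IFNα array 1 its difference was 0.09. Of the 15 receptor, JAK and STAT genes tested, Irf9 was the 1 that rose, and the median was -0.01. Leaving out IFNα array 1 gave a median of 0.09 with 2 called.

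In the GTPase and the Schlafen list 1 gene each rose. Every tested member lay above both vehicle arrays on both treated arrays, as did 14.5% of all genes tested. Gm12250, an immunity-related GTPase gene, rose from 7.97 and 8.05 to 10.08 and 9.27 (1.67 ± 0.23, limma adjusted p = 0.0449) as the 1 riser of 9 GBP and IRG genes tested. All 9 had both treated arrays above both vehicle arrays and the median was 1.02. Without IFNα array 1 the median was 0.54 with 2 called, and after subtraction at the median marker share 0 of the 9 were called in limma, with Gm12250 at an adjusted p of 0.0562. Irgm1, a regulator of that family, read 9.31 and 9.21 against 11.54 and 10.59 (1.80 ± 0.26, limma adjusted p = 0.054). Slfn8 rose from 9.53 on both vehicle arrays to 11.22 and 10.72 (1.44 ± 0.16, limma adjusted p = 0.021), the 1 riser of 7 Schlafen genes tested. The Schlafen list had a median of 1.12 and 7 of 7 with treated arrays above vehicle arrays, and without IFNα array 1 the median was 0.73 with 5 called. Slfn5 showed a larger difference, 1.97 ± 0.37, but its treated arrays read 11.54 and 10.15 and it did not pass (limma adjusted p = 0.141).

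In antigen presentation H2-T24, a non-classical class I gene, rose from 9.47 and 9.42 to 11.48 and 10.77 (1.68 ± 0.20, limma adjusted p = 0.0269). It was the 1 riser among 19 class I presentation genes tested, with a median of 0.19, or 0.08 without IFNα array 1. H2-K1 and H2-D1 have no probe set of their own symbol and are not analysed here. Cxcl10, the chemokine that attracts CXCR3-bearing cells, rose from 6.89 and 6.95 to 7.93 and 7.62 (0.86 ± 0.12, limma adjusted p = 0.0449), the 1 riser of 6 chemokine and cytokine genes tested. Cxcl10 passed the filter on low values only through the 2 h arrays, where it is high. It did not pass the filter without IFNα array 1, where limma called 0 of the 5 tested. Ccl5 read 8.69 and 9.18 against 8.20 and 8.44 (-0.62 ± 0.20, adjusted p = 0.763).

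Among cell death genes Xaf1 was the 1 riser of 15 tested, with a median of 0.14, and 3 were called without IFNα array 1. Zbp1, the sensor of Z-form nucleic acid that can trigger necroptosis, read 10.05 and 9.96 against 11.85 and 10.86 (1.35 ± 0.27, limma adjusted p = 0.184). Daxx showed 1.00 ± 0.16 (adjusted p = 0.0794) and Tnfsf10, which encodes TRAIL, 0.77 ± 0.17 (adjusted p = 0.3), both in limma. The remaining risers, named after their values were seen, were Lgals3bp, Samd9l, Trim34a and Mitd1. Lgals3bp, a secreted glycoprotein, rose from 9.99 and 10.25 to 11.75 and 11.40 (1.46 ± 0.14, limma adjusted p = 0.0109). Samd9l, an antiviral and growth-restraining factor, rose by 1.16 ± 0.13, Trim34a by 0.95 ± 0.12 and Mitd1 by 0.89 ± 0.12.

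A single gene fell. Hs3st3b1, a sulfotransferase that modifies heparan sulfate, read 9.95 and 10.02 with vehicle and 9.38 and 9.32 at 2 h. The groups did not overlap and the difference was -0.63 ± 0.09 (limma adjusted p = 0.0449). After subtraction of macrophage RNA at the median marker share the adjusted p was 0.0595 in limma, with a difference of -0.62. The call was also lost without a filter, with quantile normalization, with the replicate block, with every probe set, in the compared groups alone and without either vehicle array, at limma adjusted p-values from 0.0507 to 0.629. At 5 h the gene read 9.95 and 9.93.

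**Figure D3:**
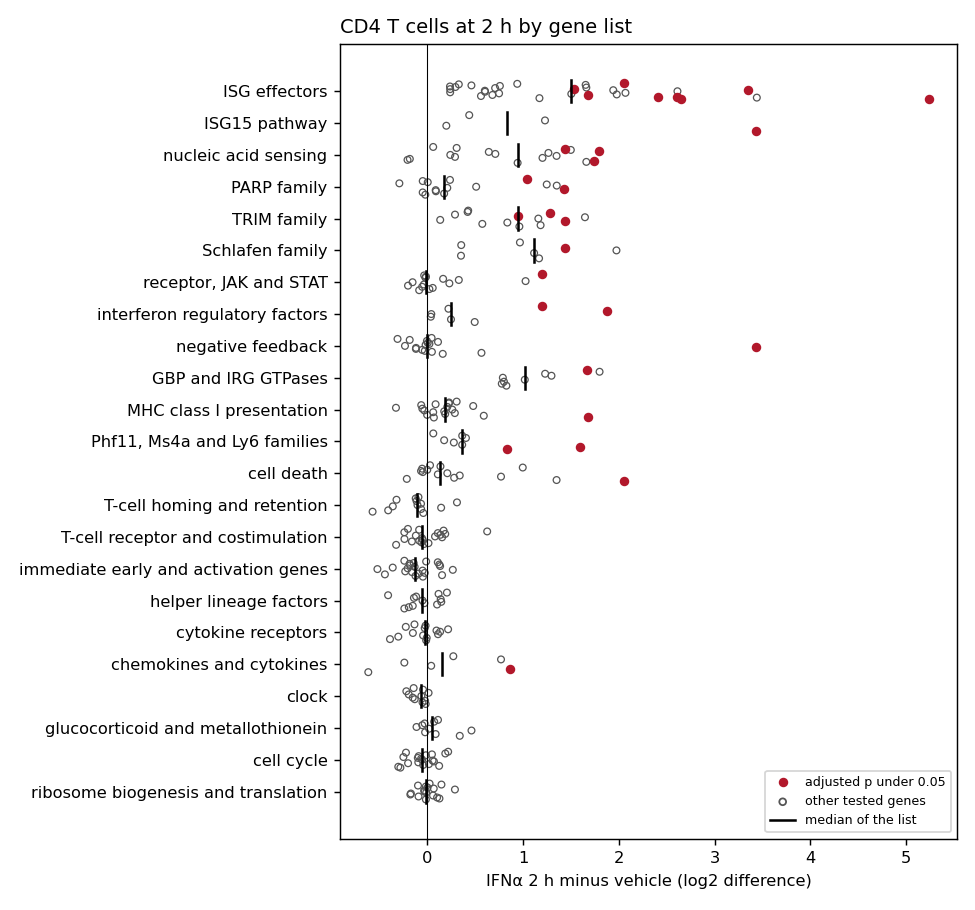
Difference between IFNα 2 h and vehicle in CD4 T cells (x axis, log2) for every tested member of 23 gene lists (y axis), with filled red points for genes at an adjusted p under 0.05 and a black bar at each list's median. The medians of effectors, sensing genes, TRIM, Schlafen and GTPase lists lie between 0.94 and 1.50 (between 0.54 and 0.92 without IFNα array 1), and those of the homing, T-cell receptor, immediate early, cell cycle, clock and ribosome lists lie between -0.13 and -0.01.

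Genes of T-cell identity, traffic and activation had no calls at 2 h. Of 13 homing and retention genes 0 were called by limma, and the median was -0.10. Without adjustment, 3 were lower at a p under 0.05 (2.72% of all genes tested). S1pr4, a sphingosine 1-phosphate receptor, read 10.80 and 10.91 with vehicle and 10.01 and 10.56 at 2 h (-0.57 ± 0.17, adjusted p = 0.705). Klf2, which drives expression of the egress receptor S1pr1, read 10.72 and 10.67 against 10.10 and 10.48 (-0.41 ± 0.13, adjusted p = 0.763). In both genes the treated arrays lay below the vehicle arrays, and array 1, with the larger macrophage signal, was the lower. Without array 1 the differences were -0.29 and -0.22. The part of that signal in them was not tested further.

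Of 20 genes of the T-cell receptor and costimulation limma called 0. At an unadjusted p under 0.05, 1 was higher and 2 were lower (3.35% and 2.72% of all genes tested). The median was -0.05, or 0.03 without IFNα array 1. Cd274, which encodes PD-L1, read 9.16 and 9.44 against 10.21 and 9.64 (0.63 ± 0.19, adjusted p = 0.705). Among 22 immediate early and activation genes limma called 0. Without adjustment, 3 were lower at a p under 0.05 (2.72% of all genes tested) and 0 higher. The median was -0.13, or -0.0034 without IFNα array 1. Dusp1, a phosphatase of MAP kinases, read 9.57 and 9.71 against 8.77 and 9.47 (-0.52 ± 0.20, adjusted p = 0.763), and without array 1 its difference was -0.17. Helper lineage factors (13 tested), cytokine receptors (14), cell cycle genes (19) and clock genes (11) had 0 calls and 0 genes at an unadjusted p under 0.05. Their medians were -0.05, -0.02, -0.05 and -0.06, and without IFNα array 1 they were 0.01, -0.04, 0.03 and -0.03. Ribosome biogenesis and translation genes (17 tested) had 0 calls, 1 gene higher at an unadjusted p under 0.05 and a median of -0.01. Regulatory T-cell markers stayed near their vehicle levels, with Foxp3 at 10.04 and 10.06 against 9.73 and 10.07. In sorted bulk cells fewer cells of a type and less RNA per cell cannot be told apart.

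At 5 h most of the risers lay between their vehicle and 2 h levels. The 5 h and 2 h differences use the same vehicle arrays, so they are given side by side. The median difference of the 28 risers from vehicle was 1.60 at 2 h and 0.65 at 5 h. For 27 of the 28 both 5 h arrays still lay above both vehicle arrays (21.7% of all genes tested), and for 27 of the 28 both 5 h arrays lay below both 2 h arrays (15.6% of all genes tested). The 28 were chosen for high 2 h values over these vehicle arrays, so nothing is read from either count. Of the 2 h difference on the log2 scale, the share left at 5 h had a median of 45.9% and ran from 2.85% for Ifi214 to 97.7% for Ifi27l2a. The same choice bears on this share, which is a description.

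Ifit1 read 12.41 and 11.62 at 2 h and 9.09 and 9.68 at 5 h, a difference from vehicle of 5.24 and then 2.61. Rsad2 read 6.27 and 6.50 at 5 h, near its vehicle values, with a difference of 0.50 where it had been 2.61. The median macrophage marker share was 2.75% and 0.379% on the 2 h arrays and 0.174% and 0.0594% on the 5 h arrays. With macrophage RNA subtracted at the highest share, Rsad2 at 5 h against 2 h turned to 0.41. The part of that signal in the falls from 2 h to 5 h was not tested. Ifi214 read 9.95 and 9.91 at 5 h and overlapped its vehicle arrays. Ifi27l2a read 10.13 and 9.80 at 5 h, overlapping its 2 h arrays, and Irf9 and Lgals3bp kept 0.82 and 1.09 of their 1.20 and 1.46. In the direct test of 5 h against 2 h, limma called 0 of the 28, and 27 of them were lower at an unadjusted p under 0.05 (3.97% of all genes). The 2 h arrays that chose these genes also enter that test, so the count is a description. The 1 gene called there was Neb, which encodes nebulin, a protein of the muscle thin filament. It read 7.53 and 7.30 at 2 h, 7.34 and 7.32 with vehicle, and 8.93 and 8.77 at 5 h (1.43 ± 0.11 over 2 h, limma adjusted p = 0.022, 0.00989% of genes called higher). Neb was not called without either one of the 5 h arrays, where limma called 0 genes, with 339 and 437 at an unadjusted p under 0.05. Without IFNα 2 h array 1 that comparison called 27 genes and without array 2 it called 1641.

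**Figure D4:**
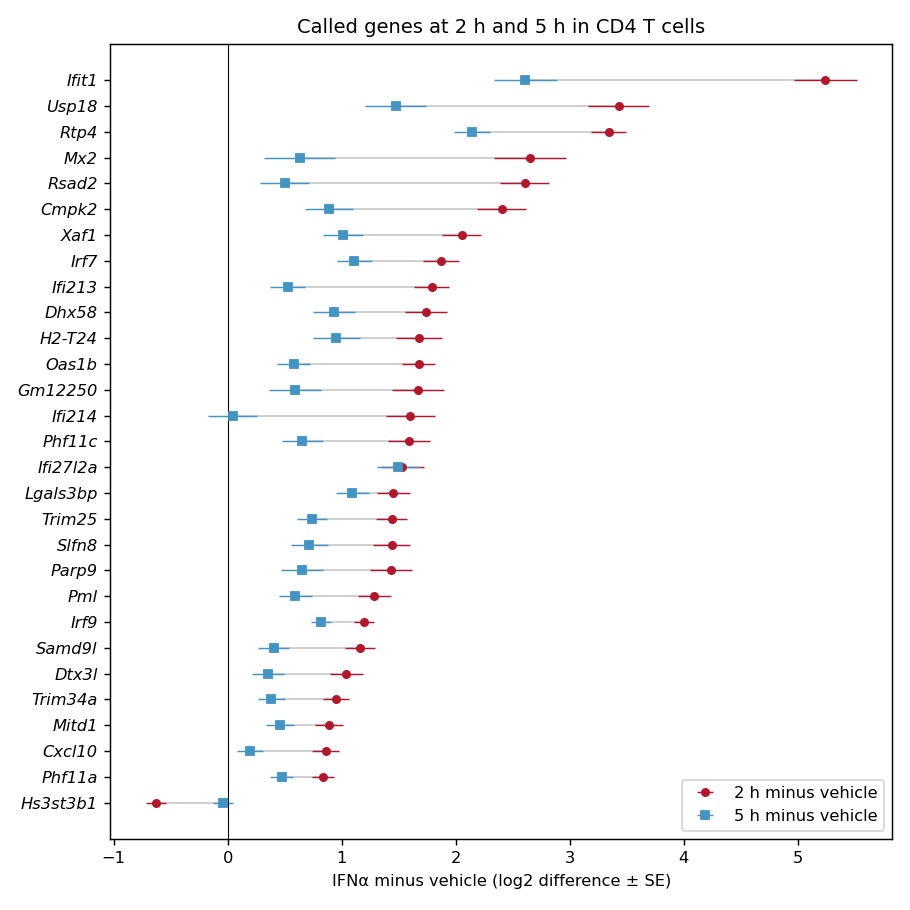
Difference from vehicle in CD4 T cells (x axis, log2, bars are SE) at 2 h (red circles) and 5 h (blue squares) for the 29 called genes (y axis). Most 5 h values lie closer to 0 than the 2 h values, with Ifi27l2a at 1.53 and 1.50, and Ifi214 at 1.60 and 0.05.

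Peritoneal macrophages of the same strain and treatment were compared at the same time. Most of their titles carry the code Sp, as stated at the start, so their site is uncertain. In the joint fit of 12 B10.Q arrays, 127 genes were called higher (1.14%) and 6 lower (0.0538%) in macrophages at 2 h. All 28 T-cell risers were above 0 in macrophages and 25 were called there (89.3% of the 28). Of the 127 macrophage genes 100 were tested in T cells. Among these 100, 25 rose (19.7% of the 127) and 95 were above 0, with a median T-cell difference of 0.82. At an unadjusted p under 0.05 in limma, 83 of the 100 were higher in T cells, against 3.35% of all genes tested. These shares depend on how many genes each cell type's test called and are no test of a difference. The 2 h T-cell arrays also carried macrophage signal, as described above. The part of that signal in these counts was not tested.

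The test of the difference between the responses called 3 genes, all with the smaller response in T cells (0.0269%), and 0 with the larger. Unadjusted p-values under 0.05 were found for 281 genes in the first direction (2.52%) and 534 in the second (4.78%). Mx1, the GTPase that blocks influenza and related viruses, read 5.96 and 5.84 in vehicle T cells and 7.23 and 6.41 at 2 h. In macrophages it read 6.15 and 6.12 and then 11.87 and 10.84. Both cell types began at similar low levels, and the T-cell response was smaller by 4.30 ± 0.42 on the log2 scale (-4.30, limma adjusted p = 0.00302). Mx1 passed the filter on low values only through the macrophages, where it is high: 0 of the 6 T-cell arrays exceeded their median, so it has no test in the T-cell fit. Both vehicle arrays of both cell types lay below their lower quartile, so the difference is an estimate against low signal, not an exact size.

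Dck, the kinase of the deoxycytidine salvage pathway, read 9.58 and 9.32 with vehicle and 9.04 and 9.36 at 2 h in T cells, where the groups overlapped. In macrophages it went from 8.50 and 8.45 to 10.41 and 9.80, and the responses differed by -1.88 ± 0.24 (limma adjusted p = 0.0223). Trex1, the exonuclease that degrades cytosolic DNA, read 8.52 and 8.34 and then 8.48 and 8.50 in T cells, against 8.88 and 8.94 and then 10.50 and 10.13 in macrophages (-1.34 ± 0.17, limma adjusted p = 0.022). In T cells the treated arrays of both genes overlapped the vehicle arrays. Mx1, Dck and Trex1 stayed called without IFNα T-cell array 1, where 18 genes were called, and without IFNα T-cell array 2, where 511 were. Leaving out any one vehicle array of either cell type left 1 gene called. Without macrophage IFNα array 1 or 2 the counts were 7 and 90.

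For the 28 T-cell risers the response was smaller than in macrophages in 19 and larger in 9, and the test called 0 of the 28. Without adjustment, 9 were lower and 2 higher at a p under 0.05 in limma. Mx2 differed by -1.98 ± 0.45 (limma adjusted p = 0.336) and Phf11a by -1.36 ± 0.25 (limma adjusted p = 0.149). Lgals3bp showed the largest difference in the other direction among the risers, 0.97 ± 0.21 (limma adjusted p = 0.299). Ifit1 responded by 5.24 in T cells and by at least 4.86 in macrophages, where both vehicle arrays lay below their lower quartile, as they did for 5 of the 28 genes. Start levels differed by gene: Ifi213 read 10.46 and 10.32 in vehicle T cells and 5.89 and 6.02 in vehicle macrophages, on the same probe set.

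**Figure D5:**
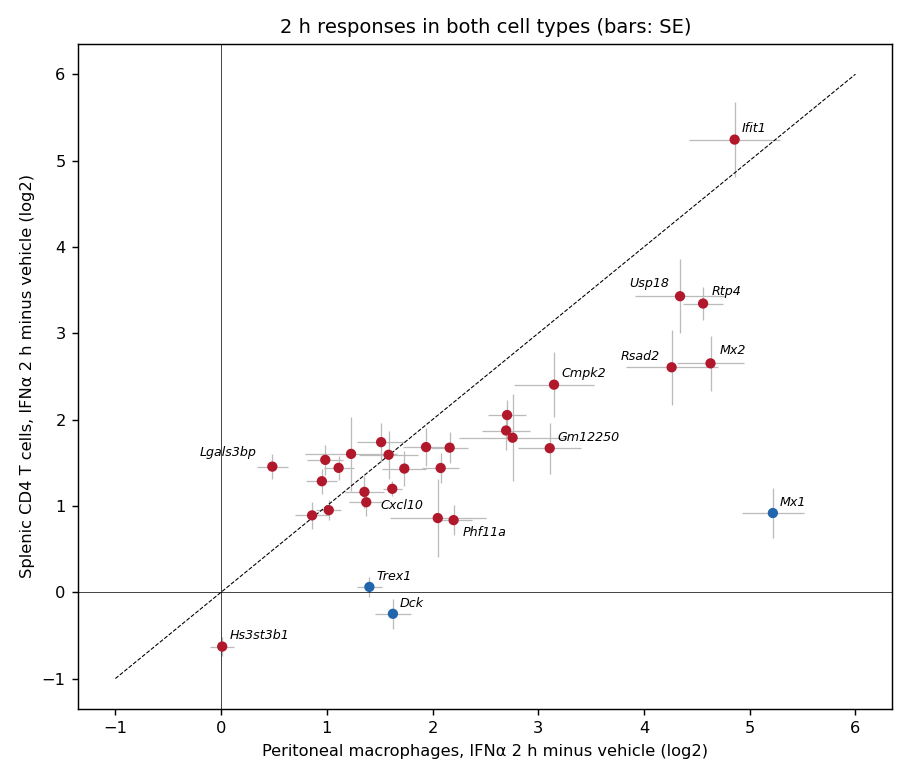
Response to IFNα at 2 h (log2 difference from vehicle, bars are SE) in peritoneal macrophages (x axis) and in splenic CD4 T cells (y axis), from the joint fit, for the 29 genes called in T cells (red) and the 3 genes whose responses differed (blue). The dashed line marks equal responses. Mx1 lies far below it at 5.22 in macrophages and 0.92 in T cells, while Ifit1 lies just above it.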

How the data were processed

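Per the labels, total RNA of the sorted cells was amplified and hybridised to the arrays. The submitters' processing notes name RMA and Affymetrix Power Tools, with no version. The authors deposited linear intensity values, 1 for each probe set. Joint normalisation of the 16 arrays is not given in the sources used here. RMA makes arrays share 1 distribution, so a change in total RNA is not seen, and low signals are compressed.

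From there, log2 of the intensity was used with no further scaling. Of 24922 probe sets, 21425 carried 1 gene symbol in GEO's platform annotation, 1399 several and 2098 none. RefSeq changed 0 symbols. For each of 19752 genes 1 probe set was kept, that of the highest mean over the 16 arrays. Tests took in genes above the array median on 2 or more arrays in a fit.

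Tests used lmFit and eBayes of limma 3.58.1 (R 4.3.3, two-sided, Benjamini-Hochberg over all genes tested, called at an adjusted p under 0.05). T cells at 2 h against vehicle and 5 h against 2 h used the 6 T-cell arrays in 3 groups. The difference between the responses of T cells and macrophages used 12 arrays in 6 groups. The procedure was also run on simulated data, with independent noise of a fixed spread for each gene and no outlying array. That run says nothing about the dependence on single arrays seen here. Arrays have no read depth, and their number limits the precision.

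Named genes were up to 15 called genes with the largest change in each direction whose arrays did not overlap, up to 4 genes per list by size of difference, Ifnar1, Ifnar2 and Tyk2, and up to 8 called genes in each direction of the other comparisons. The members and lists were chosen with earlier results of these data known. The rule for "at least" (both vehicle arrays below the lower quartile of their array) and the subtraction of macrophage RNA were chosen after seeing the data. The table held 0 columns of unknown samples.

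Same-numbered arrays of the 3 T-cell groups did not deviate together (r of 0.18, -0.06 and 0.15 between group pairs), so the numbers were not taken as pairs. The alternatives were no filter or the 70th percentile, a variance model with trend and robust fitting, quantile normalization, array medians subtracted, all probe sets of a gene, the replicate number as a block, only the compared groups, all 16 arrays, leaving out each array, and a shorter motif.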

Additional observations from a re-analysis of the deposited data

Results flagged for a closer look

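The responses of T cells and macrophages at 2 h differed by limma's test for Mx1 (-4.30 on the log2 scale), Dck (-1.88) and Trex1 (-1.34), with the smaller response in T cells each time. Mx1 passed the filter only through the macrophage arrays, and with vehicle both cell types read it under the lower quartile of their arrays. S1pr4 and Klf2 moved in opposite directions on every array of both cell types, down in T cells and up in macrophages, and the T-cell response minus the macrophage response was -0.97 and -0.54. Fn1, which encodes fibronectin and is abundant in the macrophages, moved the other way on every array, with a difference of 3.62. For these 3 genes the opposite direction itself was not tested, and the limma test of the size of the difference gave adjusted p-values of 0.417, 0.647 and 0.299. Without IFNα T-cell array 1, S1pr4 and Klf2 in T cells differed from vehicle by -0.29 and -0.22. Among probe sets that name no single gene, 1 of 753 with several symbols (0.93 ± 0.10, limma adjusted p = 0.0252) and 1 of 969 with none (1.30 ± 0.10, limma adjusted p = 0.00864) were called higher in T cells at 2 h, and 0 were called lower. Groups of 2 arrays are too small for the test of an extreme value within a group.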

How the results depend on the processing

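For T cells at 2 h the count of 29 calls was 20 with the 70th-percentile filter, 22 with quantile normalization, 36 without a filter and 43 with array medians subtracted. Fits of only the compared groups called 2 and of all 16 arrays 50, and leaving out 1 array gave 0 to 1817. For the difference between cell types the 3 calls became 7 without a filter, 5 with array medians subtracted, 6 with the trend and robust model, 1 in only the compared groups and 7 with every probe set, and leaving out 1 array gave 1 to 511. For 5 h against 2 h the 1 call became 3 without a filter, 0 at the 70th percentile (607 at an unadjusted p under 0.05 in limma), 3 with array medians subtracted, 0 in only the compared groups (661 unadjusted) and 7 with all 16 arrays, and leaving out 1 array gave 0 to 1641. With the replicate number as a block, the counts were 36, 1 and 1, and 27 of the 29 genes stayed called. The arrays share only a number, so this is no paired design. The shorter motif GAAANNGAA was in 13 windows in place of 11 (59.1%, against 6.99% of the windows of all genes tested).

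After subtraction of macrophage RNA, chosen after seeing the data, the difference between cell types had 6 calls at the median share and 174 at the highest, and 5 h against 2 h had 28 at the highest. Some directions turned. At the highest share Phf11a was -1.76, Ifnar2 -1.54, Ifitm3 (between cell types) -0.24, Fn1 (between cell types) -1.27 and Rsad2 (5 h against 2 h) 0.41. In T cells at 2 h Ifnar2 was -0.0218 at the median share. Leaving out 1 array gave -0.0726 to 0.116 for Ifnar2 and -0.403 to 0.0945 for Tyk2. The cause of these changes was not tested.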
